A study of Mus musculus with 2 samples.

Results

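Cytochrome c oxidase, complex IV of the respiratory chain, was examined for occupancy by NRF1, nuclear respiratory factor 1, in skeletal muscle of wild-type mice. The 33 genes were chosen by name: the protein-coding nuclear genes whose RefSeq symbol begins with Cox followed by a digit, to which Sco1, Sco2, Surf1, Cycs, Taco1 and Lrpprc were added. They are 33 of 21000 protein-coding genes. The study concerns glucocorticoid signalling in muscle, and mapped NRF1 beside the glucocorticoid receptor and the demethylase LSD1. NRF1 was located by chromatin immunoprecipitation followed by sequencing (ChIP-seq), in which an antibody recovers a protein together with the DNA it sits on. The labels give 2 libraries, both of wild-type skeletal muscle and both with the NRF1 antibody. They name no treatment, strain or age, while the study's account of NRF1 targets refers to mice of 9 weeks and its reporting summary to males. The same summary lists the library of replicate 2 as input DNA, against its label. A single list of 3226 peaks, named after the library of replicate 1, holds all values, so none below has a replicate error and no condition could be compared. Whole muscle holds nuclei of several cell types, and a peak list cannot tell in which of them NRF1 was bound, nor can markers of muscle be checked in it.

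Complex IV passes electrons from cytochrome c to oxygen and pumps protons across the inner mitochondrial membrane. Its catalytic core is made inside mitochondria from COX1, COX2 and COX3, whereas the subunits around the core and the factors that insert copper and heme A are made from nuclear genes. NRF1 binds GC-rich promoters as a dimer and takes its name from respiratory genes: its site was first recognised in the promoter of cytochrome c. Several subunits come as paralogs, of which one is made in most tissues and another in heart and skeletal muscle, in lung or in testis.

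The NRF1 motif was searched as the palindrome GCGCATGCGC with at most 1 mismatch, which reads the same on both strands. The following windows of 30 bases show the copy nearest to the summit, the point of highest signal of a peak, at 4 genes with a peak, read 5′ to 3′ on the strand of the gene in mm10, with the copy in capitals. They are shown because they are the sequences under the NRF1 signal of a subunit of the complex, of its electron donor and of a factor for mitochondrial mRNA.
Cox5b, chr1:36691426-36691455, plus strand: aggcagaactGCGCATGTGCggcgtctact
Cox6a1, chr5:115349056-115349085, minus strand: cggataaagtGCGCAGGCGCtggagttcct
Cycs, chr6:50566612-50566641, minus strand: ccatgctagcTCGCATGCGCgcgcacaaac
Lrpprc, chr17:84790828-84790857, minus strand: gcccttgcgcGCGCATGGGCggagccgacc

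Counted from 1 at the 5′ end of the palindrome, the Cox5b copy differs by C8T, that of Cox6a1 by T6G, that of Cycs by G1T and that of Lrpprc by C8G. These variants differ in how often they occur. The Cox6a1 variant, read on either strand, lay within 100 bp of the summit of 610 promoter peaks of the whole list, and the Cox5b variant of 66. The Cycs variant was found at 7 promoter peaks and the Lrpprc variant at 5. Of genes with the Cox6a1 variant close to the start, 601 of 678 had a peak, and of those with the Cox5b variant 64 of 81. For the less frequent variants these counts were 9 of 12 for that of Cycs and 3 of 13 for that of Lrpprc, each including the gene itself. Over all genes with the motif close to the start the share was 84.3%, and differences between variants were not tested. For a gene with several starts, the one used for that share depended on the peak, as described below. The remaining 2 windows are from the Cox7a2l and Cox14 peaks, which held no copy. They show in capitals the 10 bases closest to the palindrome within 100 bp of the summit.
Cox7a2l, chr17:83514578-83514607, minus strand: tgtccacaggACGCTTGCGCacctgtcaag
Cox14, chr15:99725616-99725645, plus strand: aggctagactGAGCGTGCGTaagagagagg

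The Cox7a2l stretch differs from the palindrome at 2 positions, G1A and A5T, and the Cox14 stretch at 3, C2A, A5G and C10T. For Cox17, Cox18 and Cox6c, which also had a peak, no sequence is shown.

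To ask which complex IV genes NRF1 occupied, a peak was assigned to a gene when its summit lay in a promoter, within 1000 bp upstream or 100 bp downstream of any start of a known RefSeq transcript. Of the 33 genes, 9 had such a peak, against 13.4% of all 21000 protein-coding genes, which is 2808 genes. The 9 are Cox5b, Cox6a1, Cox6c, Cox7a2l, Cox14, Cox17, Cox18, Cycs and Lrpprc, and they make up 27.3% of the complex IV genes. Each had 1 promoter peak. By role, peaks were present at 3 of 10 ubiquitous structural subunits and at 0 of 7 tissue isoforms. They were present at Cox7a2l, the only supercomplex factor, and at Cycs, the only electron carrier. Among 14 factors of assembly and mitochondrial mRNA, 4 had one. Since the members were named with earlier results of these data known, these counts are given without a test. Read depth is unknown, so a gene without a peak is one where none was called, not one shown to lack NRF1.

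**Figure D1:**
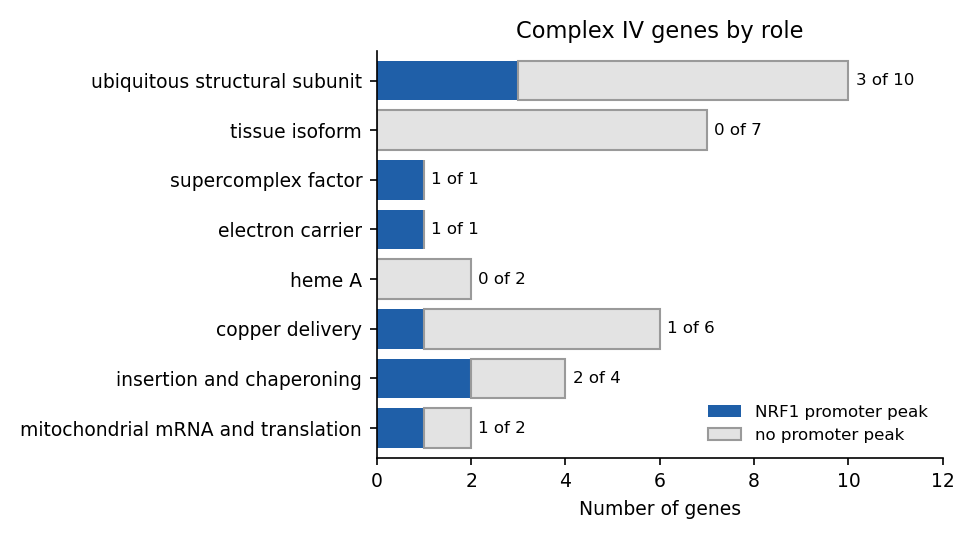
Number of complex IV genes with and without an NRF1 promoter peak, by the role of the gene product (horizontal axis, number of genes; 1 bar per role). A peak is present at 3 of 10 ubiquitous subunits, 0 of 7 tissue isoforms and 0 of 2 heme A enzymes, beside 13.4% of all protein-coding genes. The groups are small and were not tested.

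Among the ubiquitous subunits, Cox5b stood highest. Cox5b encodes a subunit on the matrix side of the complex, and its peak, chr1:36691238-36691568, had a fold enrichment of 38.3 over the control and a −log10 q of 115.3. By fold enrichment it was number 5 of 2607 promoter peaks. Cox6c, which encodes a small membrane-spanning subunit, had a peak at chr15:35937992-35938327 with a fold enrichment of 19.3 and a −log10 q of 43.4. The Cox6a1 peak, chr5:115348917-115349430, was the widest of the 9, at 514 bp, with a fold enrichment of 12.5 and a −log10 q of 33.6. Cox6a1 encodes the isoform of subunit 6A found in most tissues. Thus the 3 occupied subunits of this group had fold enrichments above the median of all promoter peaks, 11.1, and 2 of them were above its upper quartile, 16.4.

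No promoter peak was called at the other 7 ubiquitous subunits, Cox4i1, Cox5a, Cox6b1, Cox7a2, Cox7b, Cox7c and Cox8a. Cox7a2 came closest. A peak of low fold enrichment, 5.72, at chr9:79759625-79759791 (−log10 q 6.34) had its summit 120 bp after a start of Cox7a2, in a noncoding part of an exon, and so just past the promoter, which ends at 100 bp. On the inner side of that limit lay Cox6c, whose summit was 84 bp after the start. At Cox7b the nearest summit was 3609 bp before the start. It was 16283 bp away at Cox5a, 23492 bp at Cox8a, 62858 bp at Cox6b1, 117097 bp at Cox4i1 and 757282 bp at Cox7c.

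Paralogs were then set side by side. Both genes of subunit 4 lacked a promoter peak, Cox4i1 and the lung isoform Cox4i2, as did Cox6b1 and its testis paralog Cox6b2. The Cox6a pair was divided, with a peak at Cox6a1 and none at Cox6a2, the isoform of heart and skeletal muscle, whose nearest summit was 32106 bp away. With a wider promoter, which takes in the Cox7a2 peak, the Cox7a pair was divided in the same way. The other muscle isoforms, Cox7a1 and Cox8b, had their nearest summits at 11033 and 272169 bp. For the testis isoforms Cox6b2, Cox7b2 and Cox8c these distances were 59603, 1011565 and 20794 bp. The promoters of the muscle isoforms were poor in CpG. The ratio of observed to expected CpG, in the 250 bp upstream and first 50 bp downstream of the start, was 0.13 at Cox6a2, 0.115 at Cox8b and 0.333 at Cox7a1, against 1.08 at Cox6a1, 0.842 at Cox8a and 0.833 at Cox7a2. The 180 bases upstream of the Cox6a1 start are shown because this is the only complex IV promoter with more than 1 copy of the motif. They hold 22 CpG and 2 copies, in capitals. The same stretch of Cox5b, the gene with the strongest peak, holds 19 CpG and 1 copy. Both are from RefSeq, build GRCm38.p6, on the strand of the gene and end at the base before the start.
Cox6a1, chr5:115348959-115349138, minus strand: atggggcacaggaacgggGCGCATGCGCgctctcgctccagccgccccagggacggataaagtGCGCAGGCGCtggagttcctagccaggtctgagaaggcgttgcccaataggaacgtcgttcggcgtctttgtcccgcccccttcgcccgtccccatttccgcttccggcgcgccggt
Cox5b, chr1:36691307-36691486, plus strand: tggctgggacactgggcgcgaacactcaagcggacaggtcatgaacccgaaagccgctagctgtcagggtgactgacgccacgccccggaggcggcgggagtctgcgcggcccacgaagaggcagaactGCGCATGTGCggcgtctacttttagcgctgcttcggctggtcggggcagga

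Assembly factors followed. In copper delivery, Cox17, the chaperone that hands copper to Sco1 and Cox11, had a peak at chr16:38346792-38347136 with a fold enrichment of 16 and a −log10 q of 36.4. Sco1, Sco2, Cox11, Cox16 and Cox19 had none, and the nearest summits of these 5 genes were between 27099 bp, at Cox19, and 912955 bp, at Sco1. Both heme A enzymes, Cox10 and Cox15, lacked a peak, with the nearest summits at 1083516 and 316808 bp. Of the factors that insert or stabilise the mitochondrially made subunits, Cox18, which helps COX2 across the inner membrane, had a peak at chr5:90223898-90224119 with a fold enrichment of 9.02 and a −log10 q of 15.3. Cox14, which binds newly made COX1, had a peak at chr15:99725510-99725753 with a fold enrichment of 8.28 and a −log10 q of 24.2. Cox20, a chaperone of COX2, and Surf1, whose human counterpart is mutated in Leigh syndrome, had none. For Surf1 the nearest summit lay 5879 bp after the start. Lrpprc, which stabilises mitochondrial mRNA, had the weakest of the 9 peaks, chr17:84790633-84790911, at 6.43-fold and a −log10 q of 8.65, and Taco1, an activator of COX1 translation, had none.

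The electron carrier and the supercomplex factor each had a peak. Cycs encodes somatic cytochrome c, and its peak, chr6:50566512-50566751, had a fold enrichment of 18.8 and a −log10 q of 49.5. It was shared with the promoter of 5430402O13Rik, a noncoding gene that starts 74 bp away on the opposite strand, whereas the other 8 peaks lay in the promoter of 1 known gene each. Cox7a2l encodes a protein that joins complex IV to complex III. Its peak, chr17:83514344-83514704, was the second strongest of the complex IV genes, with a fold enrichment of 22.8 and a −log10 q of 52.2, although no motif was found at it.

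Over the 9 peaks, fold enrichment ranged from 6.43 to 38.3 with a median of 16, beside a median of 11.1 over all 2607 promoter peaks, with quartiles of 7.9 and 16.4. In this order, Cox5b was followed by Cox7a2l, Cox6c, Cycs, Cox17, Cox6a1, Cox18, Cox14 and Lrpprc. The 4 occupied factors of assembly and mitochondrial mRNA had a median of 8.65, and the 3 occupied ubiquitous subunits one of 19.3. With 1 value a gene, no error can be set beside neighbours in this order such as Cox6c and Cycs. Of the 9 peaks, 6 were above the median of all promoter peaks and Lrpprc alone was under its lower quartile. The median width was 331.0 bp, against 296.0 bp for all promoter peaks.

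**Figure D2:**
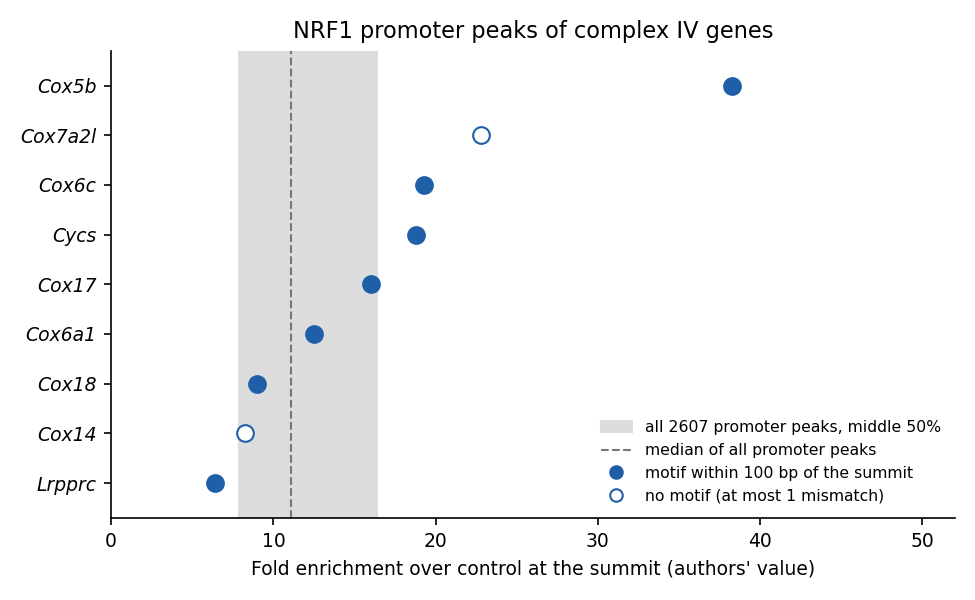
Fold enrichment of the 9 NRF1 promoter peaks of complex IV genes (horizontal axis, the authors' ratio of signal at the summit to control; 1 point per gene, filled where the motif lies within 100 bp of the summit). The grey band spans the quartiles of all 2607 promoter peaks, 7.9 to 16.4, and the dashed line is their median of 11.1. Cox5b, at 38.3, stands apart from the other 8, and Lrpprc, at 6.43, lies left of the band.

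Measured from the nearest start of the gene itself, the summit had a median position of -56 bp over the 9 genes and -58 bp over all 2808 genes with a promoter peak, where negative is upstream. The promoter used to assign peaks limits this distance. The summit lay upstream of the start at 7 of 9 genes, beside 80.5% of all genes with a peak, and in a noncoding part of an exon at Cox14 and Cox6c, 16 and 84 bp after the start. At Cox18, Cox5b, Lrpprc, Cox17, Cycs and Cox6a1 the summit was between 18 and 85 bp before the start. Cox7a2l was the exception, with its summit 262 bp before the start. With starts from GENCODE M21 the distance at Cox7a2l was 265 bp, while that at Cox5b shrank to 4 bp and that at Lrpprc grew to 284 bp. The motif was within 100 bp of the summit at 7 of 9 peaks, against 65.9% of all promoter peaks. It was the exact palindrome at 2 of them, Cox18 and Cox6a1, beside 10.9% of all promoter peaks. In these 7 peaks the copy nearest to the summit was centred 1 bp away at Lrpprc, 5 bp at Cox5b, 12 bp at Cycs, 16 bp at Cox17, 21 bp at Cox18, 22 bp at Cox6c and 28 bp at Cox6a1. Cox6a1 alone had 2 copies, centred 113 and 158 bp before the start, of which the farther one was exact. The copies of Cox17, Cox5b, Lrpprc and Cycs were centred between 45 and 58 bp before the start. At Cox18 the copy covered the start itself, and at Cox6c it was centred 62 bp after the start.

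**Figure D3:**
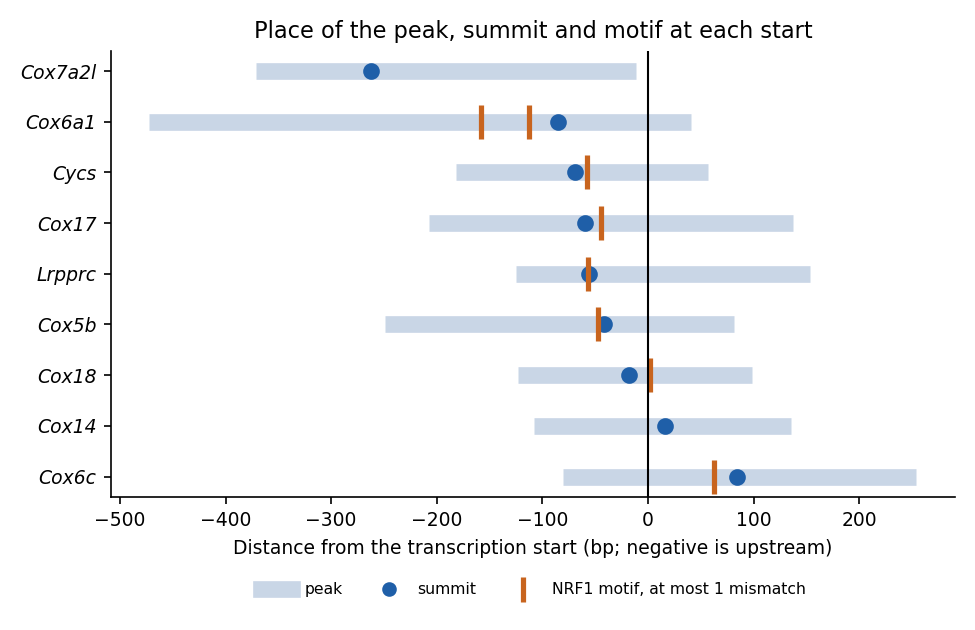
Place of the peak (pale bar), its summit (dot) and each NRF1 motif copy with at most 1 mismatch (vertical mark) at the 9 complex IV genes with a promoter peak (horizontal axis, distance from the start in bp, negative upstream). Summits run from 262 bp before the start at Cox7a2l to 84 bp after it at Cox6c, and the Cox7a2l and Cox14 peaks carry no mark.

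The motif was then counted at all complex IV promoters, with or without a peak, in the stretch from 250 bp upstream to 50 bp downstream of 1 start per gene. For a gene with a peak this was the start nearest to the summit. For any other gene it was the start of the transcript with the lowest accession number. The choice thus depended on the peak, which can widen the gap between the shares over all genes. The complex IV genes with a peak each have 1 known start, so for them it made no difference. It was present at 7 of 33 genes, against 9.25% of all genes. Of these 7 genes 6 had a peak, Cox5b, Cox6a1, Cox17, Cox18, Cycs and Lrpprc, beside 84.3% of all genes with the motif. Of the 26 genes without the motif in this stretch, 3 had a peak, Cox6c, Cox7a2l and Cox14, beside 6.14% of all genes without it. The copy of Cox6c lies just past this stretch. The gene with the motif and no peak was Cox8c, the testis isoform of subunit 8, whose copy had 1 mismatch and was centred 53 bp before the start. In no other complex IV gene without a promoter peak was there a copy anywhere in the promoter. The closest match among those 23 genes had 2 mismatches, at Cox8a, Cox15, Cox20, Sco1 and Surf1.

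The genes were then divided by CpG ratio as well. With the motif and a CpG ratio of at least 0.5, all 6 complex IV genes had a peak, beside 86.6% of such genes at large. Cox8c, with the motif and a ratio of 0.437, fell in a class of 80 genes of which 30% had a peak. Without the motif and with a ratio of at least 0.5, 3 of 21 complex IV genes had a peak, beside 11.2% of all genes of that class. Without the motif and with a lower ratio, 0 of 5 had a peak, namely Cox6a2, Cox6b2, Cox7a1, Cox7b and Cox8b, beside 0.369% of all such genes. In each class the count of complex IV genes is small, and none of these shares was tested. The shares over all genes rest on the same choice of start, which depended on the peak.

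In base composition, genes with and without a peak overlapped. The CpG ratio was 0.844 at the median of the 9 genes with a peak, between 0.679 at Cox14 and 1.08 at Cox6a1. The 7 ubiquitous subunits without a peak had a median of 0.833, and 3 promoters with no peak, those of Cox4i1, Cox15 and Cox5a, had the highest ratios of all 33 genes, at 1.21, 1.15 and 1.14. The 7 tissue isoforms had a median of 0.432 and none was above 0.564. Over all protein-coding genes the median was 0.6, with quartiles of 0.241 and 0.839. GC content spanned 38% at Cox6c, which had a peak, to 75.3% at Cox4i1, which had none, and the median of all 33 genes was 57.7%, beside 57% over all genes.

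**Figure D4:**
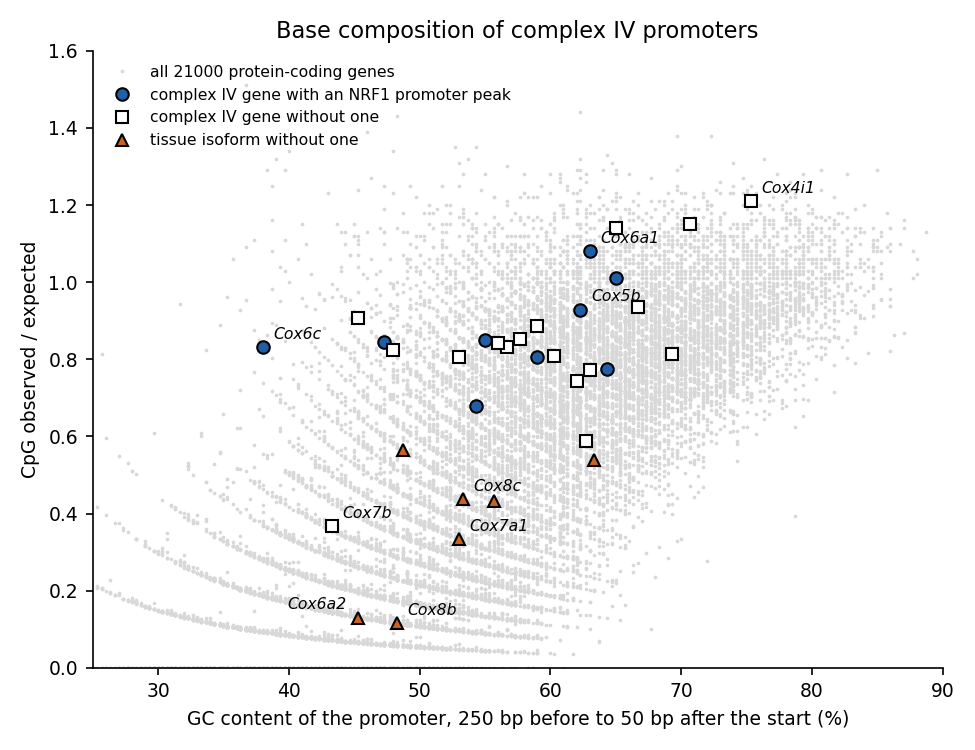
GC content (horizontal axis, %) and ratio of observed to expected CpG (vertical axis) in the same stretch around the start, for the 33 complex IV genes (large symbols) and all 21000 protein-coding genes (grey dots, of which 22 lie beyond the axes). Genes with a peak (circles) lie at ratios of 0.679 to 1.08, interspersed with ubiquitous subunits and assembly factors without one (squares), and the tissue isoforms (triangles) lie at or under 0.564.

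Promoters of complex IV genes are also known for sites of other factors, so 3 further cores were searched for exact copies on both strands in the same stretch, each counted apart from the others whether or not copies overlapped. The core CCGGAAG of ETS factors, to which GABP (also called NRF-2) belongs, was present at 10 of 33 genes, against 12.2% of all genes. They were Cox6a1 and Cox14, which had an NRF1 peak, and Cox6b1, Cox8a, Cox10, Cox15, Cox16, Cox20, Sco1 and Surf1, which had none. Cox8a held 2 copies. The Sp1 core GGGCGG was present at 20 of 33, against 48.5% of all genes, with the most copies, 8, at Cox4i1. The YY1 core AAGATGGC was present at 2 of 33, Cox10 and Cox20, against 3.21% of all genes. None of the 3 cores was present in the stretch at the muscle isoforms Cox6a2, Cox7a1 and Cox8b. A match of letters is not a bound site, and binding of these factors was not measured.

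Genes of the same pathway outside the naming rule were taken from a list of further assembly and partner genes, of which 24 were found in RefSeq. A promoter peak was present at 8 of them, or 33.3%, beside the 13.4% of all genes. The strongest was at Cmc1, which takes part in the early assembly around COX1, with a fold enrichment of 20.7. Pnkd followed at 14.4 for the stronger of its peaks, Oxa1l, the insertase of the inner membrane, at 11.9 and Higd1a, a small protein bound to complex IV, at 10.3. Cmc2 had 6.64, Coa5 5.43, Higd2a 4.76 and Tmem177 3.70. Of these 8 peaks, 4 also lay in the promoter of another gene, that of Cmc1 with Gm17399, Cmc2 with Cenpn, Coa5 with Unc50 and Higd2a with Nop16, and cannot be assigned to the assembly gene alone. The motif was within 100 bp of the summit at Cmc2, Higd1a and Oxa1l only, beside 65.9% of all promoter peaks. At Cmc2 it was centred 87 bp from the summit. For Pnkd only the stronger peak was searched. Those without a promoter peak included Ndufa4, which is now counted as a subunit of complex IV, Hccs, which attaches heme to cytochrome c, Cyct, the testis form of cytochrome c, and Slirp, the partner of Lrpprc. For the other complexes, defined by symbol, a promoter peak was present at 17 of 47 genes of complex I, 3 of 4 of complex II, 4 of 9 of complex III and 10 of 17 of complex V. Differences between complexes were not tested, and complex IV genes are set beside them as counts only.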

How the data were processed

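NRF1 ChIP-seq of wild-type mouse skeletal muscle was analysed from 1 deposited list of peaks. By the study's methods, the authors mapped single-end reads to mm10 with Bowtie 1.1.2, retained unique matches, removed reads in blacklisted regions, for which the summary names a human list, and called peaks with MACS2 2.2.7.1 against input. The stated option is for broad peaks, whereas the deposited list has the narrow format with summits. The peak names carry a mark of duplicate removal, which can limit the signal of the strongest sites. Per peak the authors deposited a fold enrichment, a q-value on the −log10 scale and the distance of the summit from the peak start. The methods set a limit of 0.01 on the false discovery rate, and 7 deposited peaks exceed it, none of them at a gene named here. The deposited list also holds more peaks than the number of NRF1 binding sites the study reports, and the reason is unknown. Read depth is unknown.

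Here, summits were placed relative to 31603 starts of 45756 known RefSeq transcripts (GRCm38, the assembly of mm10) with Python 3.11.15 and numpy 2.4.6. Assignment and motif search were tested on simulated data. Of the 33 members, 26 matched an entry of the RefSeq promoter table, and sequence is shown from among those. No test was run, since 1 list holds no replicates. Members, gene lists and the CpG limit of 0.5 were chosen with earlier results of these data known. Every member with a promoter peak is named with its values and every member without one by name. Alternatives changed the promoter, the starts, the peak threshold and the motif.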

Additional observations from a re-analysis of the deposited data

How the results depend on the processing

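Of 52 alternative values for 6 results, 47 stayed within 1.5 times the value reported or, for the median fold enrichment, did not change. The peak thresholds, a fold enrichment of at least 5 or a q-value of at most 1e-05, could not change a value for the complex IV genes. Their weakest peak, at Lrpprc, passed both, with a fold enrichment of 6.43 and a −log10 q of 8.65. The number of complex IV genes with a promoter peak ranged from 7 to 10. Over the same alternatives, the share of all protein-coding genes with one ranged from 11.6% to 14.7%. The lowest share came at the setting that gave 7, and the highest at one that gave 10. Cox7a2 was added with a promoter 500 bp to either side of the start, with one from 2000 bp before to 500 bp after it and with any overlap of the peak, and Cox6c and Cox7a2l were lost with one from 250 bp before to 50 bp after. The median fold enrichment, 16, became 14.3 in each of the former 3 cases and 12.5 in the latter, because of the peaks gained or lost. The number of peaks with the motif fell from 7 to 2 with no mismatch allowed. Tissue isoforms with a peak stayed at 0 throughout. Among the further pathway genes, the number with a promoter peak fell from 8 to 6 with the fold threshold, which lost Higd2a and Tmem177. With the q-value threshold it fell to 7, without Tmem177. The share of all protein-coding genes was 12.8% with either threshold. Starts from GENCODE M21 were an alternative chosen after seeing the data. Leaving out each replicate was not possible, since the list gives no value per library. No paired analysis was possible because the only list is named after 1 library and no test was run. The unknown read depth limits each statement on a gene without a peak.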

Other observations

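The 3 subunits of complex IV encoded in mitochondrial DNA lie outside the naming rule. Of the 3 peaks called on the mitochondrial chromosome, 1 overlapped COX1, over 1124 of the 1545 bp of that gene, and none overlapped COX2 or COX3. That peak ran from position 1 to 6451 with a fold enrichment of 2.7 and a −log10 q of 39.8. Its fold enrichment was below the lowest of all promoter peaks, 3.01, and their median width was 296.0 bp. Whether it reflects NRF1 on mitochondrial DNA was not tested. No copy of the motif with at most 1 mismatch was found in COX1, COX2 or COX3.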
